A study of Mus musculus with 4 samples.

Results

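The 10 genes described here encode members of the aldehyde dehydrogenase superfamily, measured in sorted cells of the mouse colon. They were taken by gene name from the array annotation, as the non-control probes named Aldh1a1, Aldh1a3, Aldh2, Aldh1b1, Aldh1l1, Aldh1l2, Aldh3a2, Aldh7a1, Aldh9a1 or Aldh18a1. That gave 10 of 28307 gene names and 15 of 41174 probes. All cells came from crypts of normal colon of adult mice that carry a Lgr5_EGFP-ires-CreERT2 knock-in, which makes GFP wherever the stem cell receptor gene Lgr5 is active. The sorted population labelled Lgr5-GFP was GFP positive. The population labelled CD24hi was taken by an antibody to the surface protein CD24, which the series describes as a way to obtain some of the goblet cells. Both RNAs, 300 ng of each, were hybridised together on 4 2-colour arrays, as 2 replicates of a first array (Lgr5-GFP in Cy3) and a dye swap (Lgr5-GFP in Cy5). Nothing in the labels tells whether separate animals gave the 2 replicates, so p-values cover only how far these samples differ, and that may be technical spread. The replicates also had a slide each, and a slide effect cannot be told apart from a replicate effect.

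Aldehyde dehydrogenases oxidise reactive aldehydes to carboxylic acids with NAD+ or NADP+. The cytosolic enzymes Aldh1a1 and Aldh1a3 turn retinal into retinoic acid, the ligand of nuclear retinoic acid receptors. Mitochondrial Aldh2 and Aldh1b1 clear acetaldehyde from ethanol, Aldh3a2 clears long-chain fatty aldehydes, and other members act in the breakdown or synthesis of amino acids, folate and carnitine. High aldehyde dehydrogenase activity has been used to sort stem-like cells from many tissues, and ALDH1B1 protein has been described at the base of human colonic crypts.

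Before the results, 2 facts of the libraries bear on every direction given. The sort markers ran against the labels: the log2 ratio of Lgr5 was -3.41 ± 0.29, and that of Cd24a, which encodes CD24, was 2.12 ± 0.30 (SD, n = 2 replicates; limma, adjusted p = 6.21e-04 and 7.75e-04). The populations are therefore named by their labels only, as the Lgr5-GFP-labelled RNA and the CD24hi-labelled RNA, each log2 ratio is Lgr5-GFP over CD24hi, and with the labels turned every higher becomes lower. Of the marker lists, 9 of 11 tested goblet and deep crypt secretory genes were higher in the Lgr5-GFP-labelled RNA, with Muc2, the main goblet cell mucin, at 3.76 ± 0.58, as were 4 of 4 enteroendocrine and 4 of 4 tuft cell genes and 3 of 6 genes of absorptive colonocytes. Lower there were 6 of 6 proliferation genes and 6 of 7 crypt base stem cell genes, while Tnfrsf19 of the stem cell list was higher at 1.06 ± 0.31. Of the goblet list, Tff3, at -0.95 ± 1.13, and Fcgbp, at 0.10 ± 0.72, were not called. Among all genes tested, 21.7% were called higher and 25.5% lower in the Lgr5-GFP-labelled RNA. Few genes of other cell types were bright enough to test (1 of 5 of T and NK cells, 1 of 4 of B cells, 1 of 5 of myeloid cells and 1 of 6 of stroma and endothelium). The part that the mix of cells plays in the ratios below was not tested, and in RNA from pools of cells, fewer cells of a type and less RNA per cell cannot be told apart. The dye swap of replicate 1 stood apart: 75.3% of its spots were marked as outliers by the scanner software and left out, 12 of the 15 member spots among them, so only Aldh18a1, Aldh1b1 and 1 probe of Aldh2 have 4 arrays and replicate 1 of the other members is its first array alone.

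Probe and promoter sequences of some members are shown here. Aldh1l1 and Aldh1l2 encode enzymes of the same reaction in different compartments and gave different calls, so probes of both with alike sequence are set side by side, with the bases that are shared in their best ungapped overlap in capitals.
Aldh1l1: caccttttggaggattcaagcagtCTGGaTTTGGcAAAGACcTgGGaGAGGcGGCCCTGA
Aldh1l2: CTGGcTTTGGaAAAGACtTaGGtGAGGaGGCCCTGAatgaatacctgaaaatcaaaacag
The Aldh1l1 probe (A_51_P504546) lies at chromosome 6, 90548335 to 90548895, plus strand, and this Aldh1l2 probe (A_51_P468658) at chromosome 10, 82953341 to 82955240, minus strand (build mm9, from the array annotation). These spans of 561 and 1900 bases are longer than the 60 bases of a probe. The overlap shared 30 of 36 bases. The printed Aldh1l2 probe was too dim to be kept. The call of Aldh1l2 came from its other probe, A_52_P498193, which shared no run longer than 6 bases with the Aldh1l1 probe. No pair among the 29 aldehyde dehydrogenase probes, 406 pairs in all, shared a run longer than 11 bases.

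Promoters are shown for the 3 called members that RefSeq's promoter table (GRCm38.p6, a window of 300 bases around each annotated start) holds, since Aldh18a1 and Aldh3a2 were higher and Aldh1b1 lower in the Lgr5-GFP-labelled RNA. Capitals mark the E-box CACGTG and the GC box GGGCGG on either strand.
Aldh18a1: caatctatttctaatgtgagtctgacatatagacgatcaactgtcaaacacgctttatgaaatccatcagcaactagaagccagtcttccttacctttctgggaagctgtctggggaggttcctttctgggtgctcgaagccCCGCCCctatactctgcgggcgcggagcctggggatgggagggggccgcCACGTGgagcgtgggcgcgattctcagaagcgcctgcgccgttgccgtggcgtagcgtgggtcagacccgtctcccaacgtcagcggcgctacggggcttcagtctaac
Aldh3a2: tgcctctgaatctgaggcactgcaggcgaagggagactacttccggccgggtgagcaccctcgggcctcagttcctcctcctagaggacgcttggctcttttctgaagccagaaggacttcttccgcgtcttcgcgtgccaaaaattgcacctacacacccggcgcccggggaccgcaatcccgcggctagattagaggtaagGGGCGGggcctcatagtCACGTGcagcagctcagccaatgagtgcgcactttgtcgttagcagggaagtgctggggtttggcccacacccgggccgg
Aldh1b1: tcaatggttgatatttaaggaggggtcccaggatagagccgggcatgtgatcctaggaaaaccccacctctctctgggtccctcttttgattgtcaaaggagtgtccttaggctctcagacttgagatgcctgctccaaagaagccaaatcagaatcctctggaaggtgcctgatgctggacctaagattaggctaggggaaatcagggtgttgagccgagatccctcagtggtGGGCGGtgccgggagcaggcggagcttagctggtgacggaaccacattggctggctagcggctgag
They span chr19:40588414-40588713 (minus strand), chr11:61267137-61267436 (minus strand) and chr4:45798772-45799071 (plus strand). The table held 7 promoters of 6 members (Aldh1a1, Aldh1b1, Aldh1l1, Aldh3a2, Aldh9a1 and Aldh18a1). An E-box stood in 2 of these 6 genes, Aldh18a1 at -59 and Aldh3a2 at -30, and in 7.15% of all 32851 promoters. A GC box stood in 4 of 6, at -108 in Aldh18a1, -47 in Aldh3a2, -45 in Aldh1l1 and -16 in Aldh1b1, and in 35.7% of all promoters. The letters TGATGNAA, known from amino acid response elements (3.97% of promoters), and CTTTGAT, bound by TCF factors (3.73%), were in none of the 6. AGGTCA, the core letters bound by many nuclear receptors, was in Aldh1l1 alone, at -178, and in 16.3% of all promoters. A match describes letters in this window only.

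Among the called members, mitochondrial Aldh1b1 was lower, and Aldh1l2, Aldh18a1, Aldh3a2 and Aldh7a1 were higher, in the Lgr5-GFP-labelled RNA. Of the 10 members, 9 were bright enough to test, with a probe well above background on every array with a value in either RNA. Limma called 5 of these 9 at an adjusted p under 0.05 (4 higher, 1 lower). Aldh1l2 and Aldh7a1 passed that filter only through the Lgr5-GFP-labelled RNA, the side on which they were higher. Where both RNAs had to be above background neither was tested. Limma then called 3 of 7 members (2 higher, 1 lower), beside 6229 of 11929 genes. The share called among all 14802 genes tested was 47.2%, with 21.7% higher and 25.5% lower, so the members' share of 55.6% is near that of all genes and is no result about the family. Their median log2 ratio was 0.29, against -0.07 for all genes tested. Limma called no gene of the whole table, members included, when spots of non-uniform local background were kept in the background fit (smallest adjusted p = 0.0557, with 5580 genes at an unadjusted p under 0.05).

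**Figure D1:**
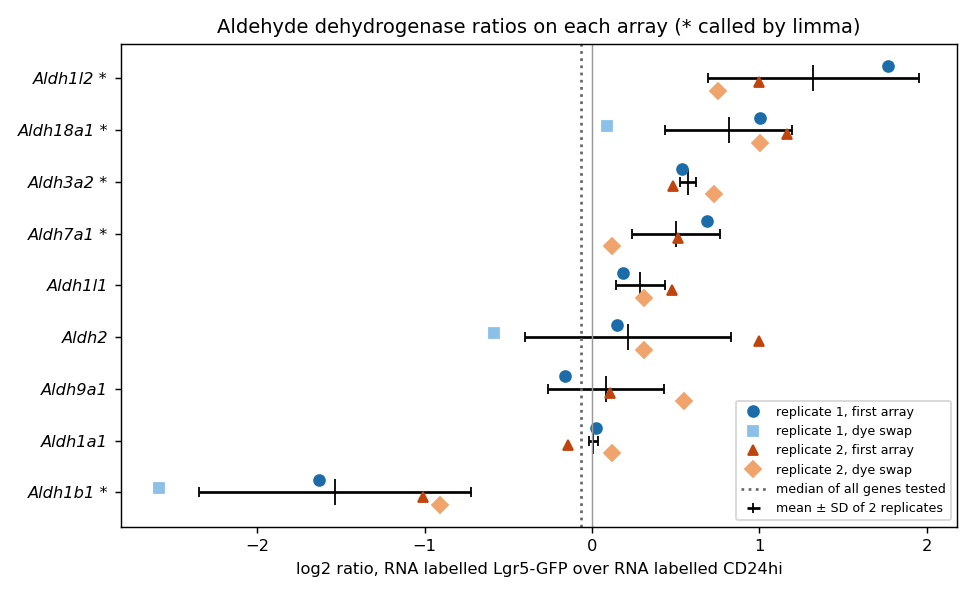
Log2 ratio of each of the 9 tested members, Lgr5-GFP-labelled RNA over CD24hi-labelled RNA, with 1 point per array, and the mean and SD of 2 replicates as a bar. Aldh1b1 lies below 0 on all 4 arrays and Aldh1l2 above 0 on all 3 arrays with a value, while the arrays of Aldh2, Aldh9a1 and Aldh1a1 lie on both sides of 0.

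Of the retinal enzymes, Aldh1a1 showed no difference beyond the spread and Aldh1a3 was too dim to test. Aldh1a1 (chromosome 19, 20717764 to 20717823, mm9), the cytosolic enzyme whose activity is used to sort stem-like cells, was well above background in both RNAs on every array. Its log2 ratio was 0.03 on the first array of replicate 1, and -0.15 and 0.12 on the first and swapped arrays of replicate 2. The arrays scattered around 0. The mean was 0.01 ± 0.03 (SD, n = 2; limma, adjusted p = 0.970), with a 95% confidence half-width of 0.30 from limma. The median centring of arrays put it at -0.27 (limma, adjusted p = 0.162), so its sign depends on the scaling. For Aldh1a3 (chromosome 7, 73535785 to 73535844), the retinal enzyme of several embryonic tissues, the brighter probe read 104 and 178 in the Lgr5-GFP-labelled RNA on the first array of replicate 1 and the dye swap of replicate 2, against 173 and 98.7 in the CD24hi-labelled RNA. These are unnormalised brightness values. On the first array of replicate 2 the probe was not well above background in either RNA. Its log2 ratios of 0.17, 0.32 and 0.43 on the 3 arrays with a value were above 0. Neither this probe, with a mean of 0.27 ± 0.14 over the 2 replicates, nor the second probe, with 0.06 ± 0.02, passed the filter for the test. Without that filter Aldh1a3 was tested with the other members and was not called.

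The share called in the pathway lists described from here on ran from 33.3% to 83.3%, beside 47.2% of all genes, and no list was tested as a set. Of 18 tested genes of retinoid metabolism and signalling, 7 were higher and 8 lower in the Lgr5-GFP-labelled RNA, with a median of -0.16. Rbp4, the secreted retinol carrier, was higher at 3.42 ± 0.38, and Rdh10, which makes retinal from retinol, at 1.64 ± 0.16. Rbp7, a cellular retinol-binding protein, was lower at -1.84 ± 0.69, Rdh9 at -1.14 ± 0.00, and Rdh5, another retinol dehydrogenase, at -0.78 ± 0.01 (limma, all adjusted p at or below 0.00486). The calls of Rdh10 and Rdh5 were each lost under 2 of 15 other settings with a test. Over all settings the log2 ratio of Rdh10 ran from 0.66 to 2.12. The receptor Rxra, at -0.19 ± 0.13, and the carotenoid-cleaving Bco2, at -0.13 ± 0.17, were not called. Among 6 tested genes known to respond to retinoic acid, Tgm2, a transglutaminase, was lower at -2.61 ± 0.49 and Dhrs3, which returns retinal to retinol, was higher at 0.43 ± 0.18 (limma, adjusted p = 0.0437). The call of Dhrs3 was lost under 7 of 15 other settings with a test, with adjusted p in limma up to 0.651. Cdx1, at 0.43 ± 0.43, and Nrip1, at 0.27 ± 0.20, were not called. The other 9 genes of that list, such as Cyp26a1, Cyp26b1 and Rarb, were on the array and not bright enough to test.

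The mitochondrial acetaldehyde enzymes parted. Aldh1b1 (chromosome 4, 45816960 to 45817019) had an unnormalised spot brightness of 6336 and 13107 in the Lgr5-GFP-labelled RNA on the first and swapped arrays of replicate 1, against 29299 and 24814 in the CD24hi-labelled RNA. In replicate 2 the same spot read 5751 and 6989 in the Lgr5-GFP-labelled RNA, against 16862 and 11875 in the CD24hi-labelled RNA. The CD24hi-labelled RNA was brighter in both dyes in both replicates, before any normalization, and the ranges over arrays overlap. After normalization the log2 ratios of the 4 arrays in the same order were -1.63, -2.59, -1.01 and -0.91. The replicates were at -2.11 and -0.96, so replicate 1 was lower, and the mean was -1.54 ± 0.81 (SD, n = 2), which is 2.90-fold lower in the Lgr5-GFP-labelled RNA (limma, adjusted p = 0.00746). It was the one member called lower, and limma called it under 14 of 15 other settings with a test, with ratios over all settings between -2.11 and -0.96.

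Aldh2, the main acetaldehyde enzyme of liver, differed between the arrays instead. Its brighter probe (chromosome 5, 122022137 to 122022690) had log2 ratios of 0.15 and -0.58 on the arrays of replicate 1 and 0.998 and 0.31 on those of replicate 2. The replicates lay on opposite sides of 0, at -0.22 and 0.65, and the mean of 0.22 ± 0.62 was not called (limma, adjusted p = 0.461; 95% half-width 0.55). Its second kept probe (122016157 to 122016216) gave -0.11 ± 0.10. Without the dye swap of replicate 1 the log2 ratio was 0.40 and just passed the threshold (limma, adjusted p = 0.0499). The ratio of Aldh1b1 minus that of Aldh2 was -1.89 in replicate 1 and -1.61 in replicate 2 (-1.75 ± 0.20 on the log2 scale), with the brighter Aldh2 probe. That gap has no test of its own.

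Beside these stand the enzymes that make aldehydes from alcohols or reduce them. Of 8 tested alcohol dehydrogenases, aldo-keto reductases and other genes of ethanol oxidation, 5 were lower and 0 higher in the Lgr5-GFP-labelled RNA, with a median of -0.78. That is 62.5% called, beside 47.2% of all genes. Akr1b8, an aldo-keto reductase, had -2.25 ± 0.25 and Adh1, the classical ethanol-oxidising enzyme, -2.17 ± 0.06. Adh5, the formaldehyde-glutathione enzyme, had -1.22 ± 0.32 and Akr1b3, aldose reductase, -1.06 ± 0.13 (limma, these 4 at adjusted p of 0.00271 or below). Adh6a, not well above background on any array in the Lgr5-GFP-labelled RNA, had a log2 ratio of -0.51 ± 0.06 (limma, adjusted p = 0.0197). That is 1.42-fold lower with these settings only, and the bound set for such a dim signal equals this fold, so it adds no lower limit. Its call was lost under 4 of 13 other settings with a test, among them no background subtraction (-0.27; limma, adjusted p = 0.0892), and the log2 ratio of Adh6a was -2.15 with the processed signals. Akr7a5, at -0.33 ± 0.40, and catalase, Cat, at -0.27 ± 0.26, were not called.

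**Figure D2:**
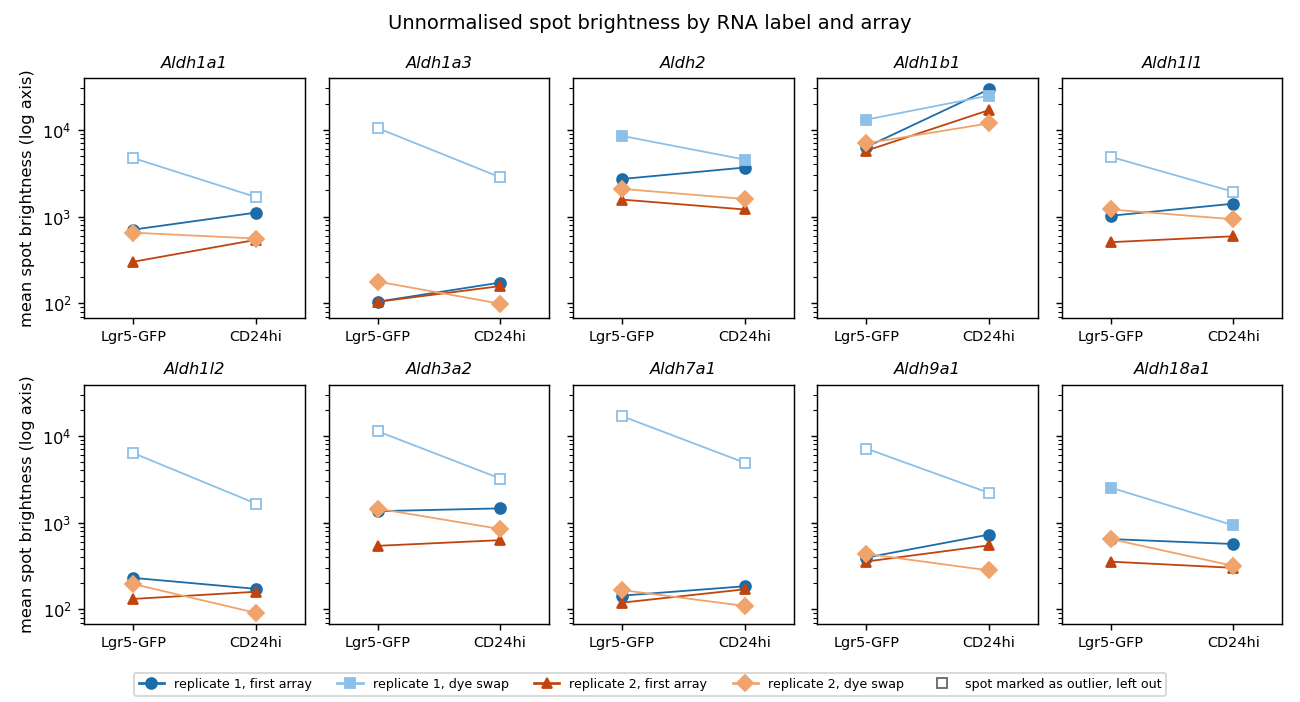
Unnormalised mean spot brightness (log axis, scanner units) of each member's displayed probe in the Lgr5-GFP-labelled RNA (left) and the CD24hi-labelled RNA (right), with a line per array. Open squares are spots left out as outliers. Aldh1b1 rises to the right on all 4 arrays, and the open squares of replicate 1's dye swap sit far above the other arrays for most members. Levels of different genes are not comparable, since probes differ.

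The folate-linked members encode 10-formyltetrahydrofolate dehydrogenases, which release the one-carbon unit of formyl-folate as carbon dioxide and make NADPH, Aldh1l1 in the cytosol and Aldh1l2 in mitochondria. The displayed probe of Aldh1l2 (A_52_P498193, chromosome 10, 82950571 to 82950630) read 231, 132.0 and 196 in the Lgr5-GFP-labelled RNA, on backgrounds of 48.5, 47.0 and 129, on the first array of replicate 1 and both arrays of replicate 2. It read 173, 160 and 91.2 in the CD24hi-labelled RNA, on backgrounds of 132, 132.0 and 47.0, and was not well above background there on any of these arrays. The log2 ratios were 1.77, 1.001 and 0.75, all above 0. The mean was 1.32 ± 0.63 (SD, n = 2; limma, adjusted p = 0.00654). That is 2.50-fold higher in the Lgr5-GFP-labelled RNA with these settings only. With the CD24hi-labelled RNA not above background, the bound set for such a dim signal equals this fold, so it adds no lower limit. The fold moves with the settings. The log2 ratio was 0.92 with no background subtraction (limma, adjusted p = 0.0303) and with marked spots kept, 3.46 with the software's processed signals and 3.59 with the deposited series table, and 0.88 in replicate 2 alone. The second probe, printed above beside that of Aldh1l1, was too dim to be kept and gave 0.41 ± 0.26. Aldh1l1 was well above background in both RNAs. Its log2 ratios of 0.18, 0.48 and 0.31 were all above 0 as well, but the mean of 0.29 ± 0.15 was not called (limma, adjusted p = 0.119; 95% half-width 0.32), except with the arrays fitted singly and the replicate as a block (0.33; limma, adjusted p = 0.0410).

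Folate one-carbon enzymes divided between higher and lower calls. Of 26 tested, 6 were higher and 9 lower in the Lgr5-GFP-labelled RNA, with a median of -0.26. Among the lower were Shmt1, the cytosolic serine hydroxymethyltransferase, at -2.08 ± 0.32, and Mthfd1, the cytosolic trifunctional folate enzyme, at -1.95 ± 0.19. The folate carrier Slc19a1 was at -1.53 ± 0.04 and Tyms, thymidylate synthase, at -1.46 ± 0.12 (limma, these 4 at adjusted p of 0.00103 or below). Fpgs, which adds glutamates to folate, at -0.43 ± 0.23, and the mitochondrial folate carrier Slc25a32, at 0.37 ± 0.10, were not called. The 6 proliferation markers, which include the replication genes Mcm6 and Pcna, were lower too, at log2 ratios of -3.18 to -2.02, unlike the 6 folate enzymes called higher. The level of these markers was also summed over all their 11 probes, from normalized channel values on a linear scale. On the 3 arrays with few marked spots the markers summed to 10771 to 16339 in the Lgr5-GFP-labelled RNA, against 77779 to 82960 in the CD24hi-labelled RNA. Their part in the folate ratios was not tested.

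Aldh3a2, the fatty aldehyde dehydrogenase whose human counterpart is mutated in Sjögren-Larsson syndrome, was higher in the Lgr5-GFP-labelled RNA. Its SD between replicates was the smallest of the called members. Replicate 1 is a single array there, and the arrays of replicate 2 lay further apart than that SD. Its probe (chromosome 11, 61058257 to 61058290) read 1356, 541 and 1450 in the Lgr5-GFP-labelled RNA on the first array of replicate 1 and both arrays of replicate 2, against 1461, 628 and 845 in the CD24hi-labelled RNA. Before normalization the RNA in Cy5 was the brighter on every one of these arrays. The log2 ratios after normalization were 0.54, 0.48 and 0.73, all above 0, with a mean of 0.57 ± 0.05 (SD, n = 2), which is 1.49-fold (limma, adjusted p = 0.0134). The call was lost with arrays centred on their medians (0.32; limma, adjusted p = 0.121) and with marked spots kept (0.43; limma, adjusted p = 0.117). Against Aldh1a1 on the same arrays its ratio was higher by 0.51 in replicate 1 and 0.62 in replicate 2. Of 14 tested genes of fatty aldehyde and sphingolipid breakdown, 5 were higher and 2 lower in the Lgr5-GFP-labelled RNA, with a median of 0.14. The neutral ceramidase Asah2 was higher at 1.30 ± 0.29, the alkaline ceramidase Acer3 at 1.13 ± 0.09, and Far1, which reduces fatty acyl-CoA to fatty alcohol, at 0.67 ± 0.36. The call of Far1 was lost under 4 of 15 other settings with a test, with adjusted p in limma up to 0.330. The ceramidases Acer1, at -0.85 ± 0.26, and Acer2, at -0.65 ± 0.02, were lower. Gnpat, of ether lipid synthesis, at -0.35 ± 0.05, and Sgpp2, a sphingosine phosphate phosphatase, at -0.27 ± 0.08, were not called.

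Aldh18a1 differs from the other members in its reaction: it encodes pyrroline-5-carboxylate synthase, which starts proline and ornithine synthesis from glutamate. Its promoter is the first of those printed above. Its probe (chromosome 19, 40625045 to 40625103) read 647 and 2534 in the Lgr5-GFP-labelled RNA on the first and swapped arrays of replicate 1 and 355 and 647 on those of replicate 2. The same spots read 567 and 931 in the CD24hi-labelled RNA in replicate 1 and 301 and 317 in replicate 2. Before normalization the Lgr5-GFP-labelled RNA was the brighter on all 4 arrays, in either dye. On the dye swaps its median over all gene spots was the brighter too, at 4377 against 1358 in replicate 1 and 164 against 110 in replicate 2. On the first arrays that median was the lower. The log2 ratios were 1.01, 0.092, 1.17 and 1.01, so the dye swap of replicate 1 stood below the other 3 arrays. The mean was 0.82 ± 0.38 (SD, n = 2), which is 1.76-fold (limma, adjusted p = 0.0117). The call was lost without the first array of replicate 1, which leaves that replicate to the dye swap with the marked spots (0.59; limma, adjusted p = 0.303), and with marked spots kept (0.72; limma, adjusted p = 0.0745).

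The next steps of proline metabolism held some of the larger ratios among the lists. Of 17 tested genes of proline and ornithine metabolism, 5 were higher and 6 lower in the Lgr5-GFP-labelled RNA, with a median of -0.06. Pycr1, which completes proline synthesis in mitochondria, was higher at 2.42 ± 0.29, and the collagen prolyl hydroxylase subunits P4ha2 and P4ha1 at 2.46 ± 0.59 and 1.58 ± 0.07. Arg1, arginase, was higher at 2.21 ± 0.24. Otc, which turns ornithine into citrulline, was lower at -2.02 ± 0.47, with signal well above background in the Lgr5-GFP-labelled RNA on 2 of 3 arrays (limma, these 5 at adjusted p of 0.00120 or below). Odc1, of polyamine synthesis, at -0.31 ± 0.33, was not called. Aldh4a1, which runs the opposite way to Aldh18a1 in proline breakdown, was at 0.05 ± 0.13 and was not called either.

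**Figure D3:**
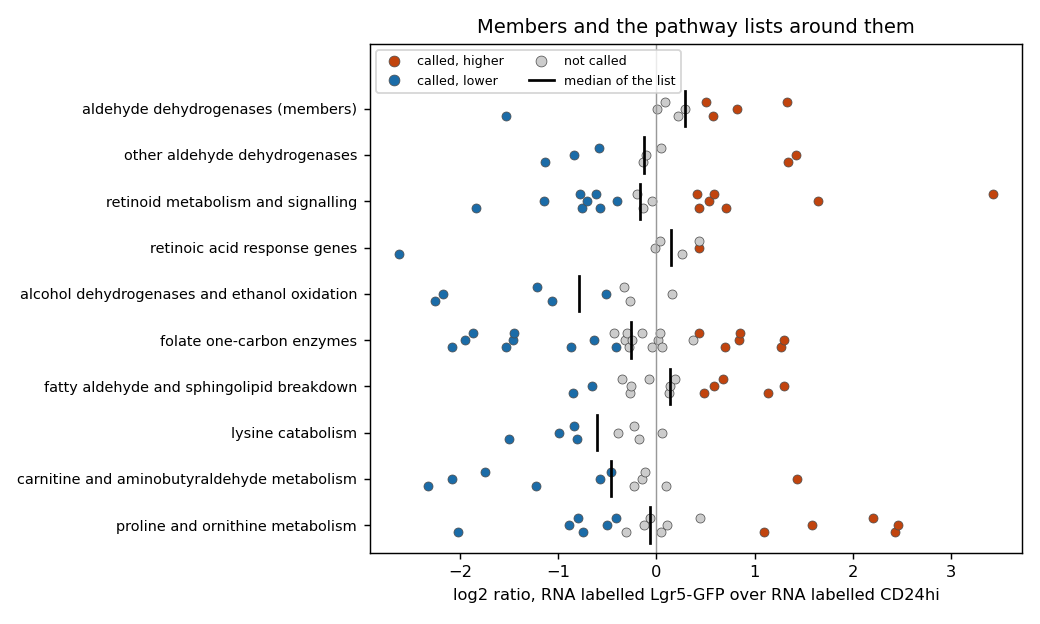
Log2 ratio, Lgr5-GFP-labelled RNA over CD24hi-labelled RNA, of each tested gene of the members, the other aldehyde dehydrogenases and the lists around them, with red for genes called higher by limma, blue for lower, grey for not called, and a black line at each list's median. No gene of ethanol oxidation or lysine catabolism was called higher, while proline and ornithine metabolism runs between -2.02 and 2.46.

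Aldh7a1, which oxidises aminoadipic semialdehyde in lysine breakdown and protects against other aldehydes, was the weakest call. Its displayed probe (A_52_P503071) read 144, 120 and 167 in the Lgr5-GFP-labelled RNA on the first array of replicate 1 and both arrays of replicate 2, against 185, 170 and 110 in the CD24hi-labelled RNA. The spots were close to their backgrounds, and in the CD24hi-labelled RNA 2 of 3 were well above them. The log2 ratios were 0.69, 0.51 and 0.12, all above 0, with a mean of 0.50 ± 0.26 (SD, n = 2), which is 1.42-fold (limma, adjusted p = 0.0350). It was called under 7 of 13 other settings with a test, with adjusted p in limma up to 0.250, and its log2 ratio was 1.37 with the processed signals. With arrays fitted singly and a dye term, Aldh7a1 was at 0.36 and not called (limma, adjusted p = 0.0593). Its second probe was too dim to be kept and gave 0.10 ± 0.09. Of 8 tested genes of lysine catabolism, 4 were lower and 0 higher in the Lgr5-GFP-labelled RNA, with a median of -0.60, and the share called (50%) was near that of all genes. The lower ones were Pipox, pipecolic acid oxidase, at -1.50 ± 0.75, and Aass, the enzyme that starts the saccharopine route, at -0.99 ± 0.15. Crym, a ketimine reductase, had -0.84 ± 0.55 and Hadh, a hydroxyacyl-CoA dehydrogenase, -0.81 ± 0.40 (limma, these 4 at adjusted p of 0.0211 or below). For Pipox the arrays of replicate 1 had opposite signs, at -2.12 on the first and 0.18 on the dye swap. Those of replicate 2 were at -1.90 and -2.15. Acat1, at -0.39 ± 0.28, and Gcdh, at -0.23 ± 0.01, were not called.

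Aldh9a1, which oxidises aminobutyraldehyde and trimethylaminobutyraldehyde in the synthesis of GABA and carnitine, gave a different value with each probe. The brighter probe (A_52_P265877, chromosome 1, 169298245 to 169298304) had log2 ratios of -0.16, 0.11 and 0.55 on the first array of replicate 1 and both arrays of replicate 2. The mean of 0.08 ± 0.35 was not called (limma, adjusted p = 0.705; 95% half-width 0.40). The second kept probe (A_51_P106211, 169292000 to 169294675) gave 0.36, 0.62 and 0.40, with replicate means of 0.36 and 0.51 and an overall mean of 0.43 ± 0.11. With all kept probes averaged the gene was at 0.26 (limma, adjusted p = 0.164). Of 11 tested genes of carnitine and aminobutyraldehyde metabolism, 1 was higher and 6 lower in the Lgr5-GFP-labelled RNA, with a median of -0.46. The diamine oxidase Aoc1 was lower at -2.32 ± 0.24, and the monoamine oxidases Maob at -1.75 ± 0.06 and Maoa at -1.23 ± 0.15. Shmt1, whose value is given with the folate enzymes, stands in this list too. Smox, spermine oxidase, was the gene called higher, at 1.43 ± 0.47 (limma, these 5 at adjusted p of 0.00293 or below). The carnitine transporter Slc22a5, at -0.23 ± 0.13, and Tmlhe, which starts carnitine synthesis, at -0.15 ± 0.00, were not called.

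Of the 10 further aldehyde dehydrogenase genes found on the array, 8 were tested, and 2 were higher and 3 lower in the Lgr5-GFP-labelled RNA. Aldh3b1, a lipid aldehyde enzyme, was higher at 1.42 ± 0.10 (1.49 and 1.35 in replicates 1 and 2; limma, adjusted p = 0.00107), and Aldh3b2 at 1.34 ± 0.71 (0.84 and 1.84; limma, adjusted p = 0.00826). Aldh1a7, a rodent relative of Aldh1a1, was lower at -1.13 ± 0.35 (-1.38 and -0.88; limma, adjusted p = 0.00374), beside 0.01 for Aldh1a1. Aldh16a1 was lower at -0.84 ± 0.43 and Aldh5a1, succinic semialdehyde dehydrogenase, at -0.58 ± 0.06 (limma, adjusted p = 0.0134 and 0.0126). With all kept probes averaged the log2 ratio of Aldh16a1 was -0.29 and not called (limma, adjusted p = 0.261), and the log2 ratio of Aldh5a1 was not called with the first array of replicate 1 left out (-0.48; limma, adjusted p = 0.444). Aldh6a1, of valine breakdown, at -0.14 ± 0.02, Aldh8a1, at -0.11 ± 0.04, and Aldh4a1 were not called, and Aldh1a2 and Aldh3a1 were not bright enough to test.

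**Figure D4:**
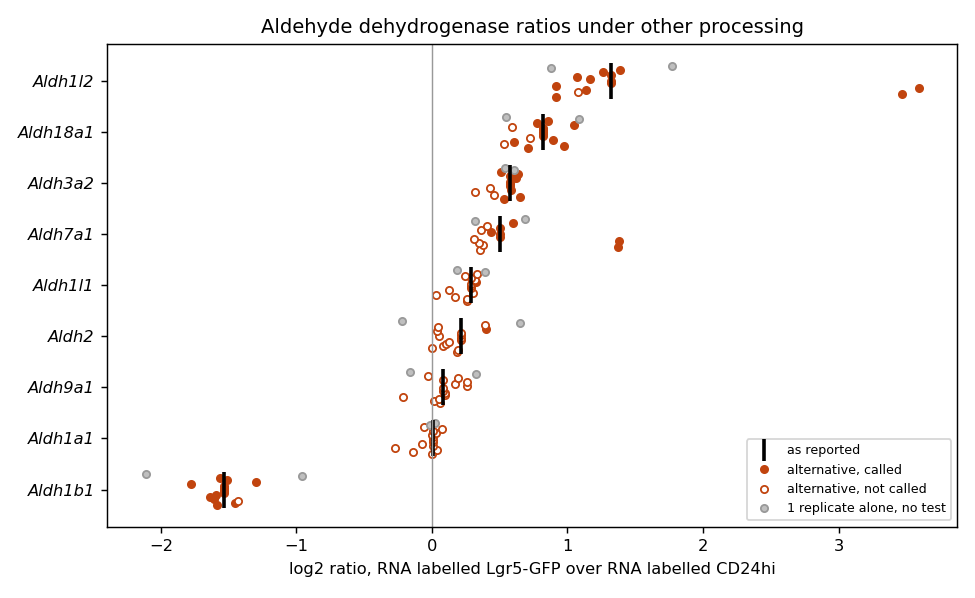
Log2 ratio of each tested member, Lgr5-GFP-labelled RNA over CD24hi-labelled RNA, as reported (black line) and under every alternative that gave a value, with filled red points where limma called it, open points where it did not, and grey points for 1 replicate alone. The 5 called members keep 1 sign throughout, while Aldh1l2 and Aldh7a1 move to 3.59 and 1.38 with the deposited series table.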

How the data were processed

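Per the labels, total RNA was isolated with Trizol and labelled by linear amplification. Per the file headers, Feature Extraction 10.5.1.1 quantified the arrays. As deposited, its intensity values were mean spot brightness and median local background in both dyes, not normalized. Per the file headers, the processed intensity values were background-subtracted and dye-normalized, and the deposited log10 ratio is that of red over green. The deposited series table holds log2 ratios of red over green, found by setting each column against its array's log10 ratio (r = 0.977, 0.923, 0.950 and 0.986). Its column medians were -0.01, 0.03, -0.01 and -0.01, and the sources used here do not give its normalization. Median brightness on the first and swapped arrays of replicate 1 and then of replicate 2 was 109, 4377, 94.2 and 164 for the Lgr5-GFP-labelled RNA and 197, 1358, 169 and 110 for the CD24hi-labelled RNA. Arrays correlated across genes at r of 0.721 to 0.958, and their number limits the precision.

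R 4.3.3 and limma 3.58.1 were used. The normexp background correction had an offset of 50, with 74 spots of non-uniform background on 1 array left out first. Arrays were normalized by loess with control spots at weight 0. Marked spots were left out (100, 32648, 222 and 163 of 43379), and none was saturated. Probes well above background on all arrays with a value in at least 1 population were kept (11 of 15 member probes), and a gene is shown by its brightest kept probe. Swapped ratios were turned, an array and its swap averaged, and limma tested the 2 ratios against 0, two-sided, with 1 residual and 4.50 prior degrees of freedom and Benjamini-Hochberg adjustment over 14802 genes. Gene names were updated through RefSeq (GRCm38.p6) for 27041 spots, and 16338 kept the file's name. A bound sets the bright RNA's mean against the dim RNA's, per channel after loess and Aquantile, with per array the higher of the dim probe's signal and the lowest signal well above background. It is open to dye bias where replicate 1 lacks its swap, as are the ratios and calls of the 6 members with 3 arrays. The limma step alone was tried on simulated ratios, with far fewer changed genes than were called here and the same spread for every gene. That trial left out background correction and normalization and does not bear on them.

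Named genes were all members, all other aldehyde dehydrogenases, up to 5 called and 2 uncalled genes of each list with the largest ratios, and Lgr5, Cd24a and Muc2. Some genes that this rule names are not reported here. Members, lists and settings were chosen with earlier results of these data known.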

Additional observations from a re-analysis of the deposited data

Results flagged for a closer look

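On the dye swap of replicate 1 the log2 ratio of Aldh18a1 was 0.092, with the other 3 arrays between 1.01 and 1.17. Its gap to the nearest array was a larger part of the range than the critical value for 4 values allows (0.849 of the range). Chance flags about 1 in 20 such groups, and 3 members had 4 arrays to examine. On that array 75.3% of the gene spots were marked, although that of Aldh18a1 was not.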

How the results depend on the processing

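Over 17 alternatives no member's call changed sign. Of the members' tested values under them, 111 kept their side of the threshold, 14 lost a call and 2 gained one. Members that were not called changed sign under some, as Aldh2 did with replicate 2 left out (-0.22). The 5 called members became 0 with non-uniform backgrounds kept in the normexp fit, 3 with arrays only centred on their medians, 2 with marked spots kept and 3 of 7 tested where both populations had to be above background. They numbered 1 of 3 tested to 6 when 1 array was left out, the 1 being without the first array of replicate 1. Over all genes, 6985 calls became 0 with those backgrounds kept and 3731 with marked spots kept, and 981 (of 6032 tested, without the first array of replicate 1) to 8543 when 1 array was left out. The causes were not tested, beyond the fewer genes tested without the first array of replicate 1. Median centring split the calls into 2219 higher and 5426 lower, against 3205 and 3780, and put the median of all genes at -0.25 and that of the members at 0.08, against -0.07 and 0.29. The series table put the median of all genes at -0.17. With 1 replicate alone there is no test. Signals near background limit Aldh1l2, Aldh7a1 and Aldh1a3. Both populations share each array, so every ratio is paired. With arrays fitted singly and the replicate block, 6 members and 8220 genes were called.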
